A study of Homo sapiens with 12 samples.

Results

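The regions described here are stretches of DNA that were captured with an antibody against 5-methylcytosine (5mC), differed between undifferentiated and differentiated HL-60 cells, and shared not 1 base with any stretch listed for 5-hydroxymethylcytosine (5hmC). They were found by coordinates: of 64607 listed 5mC regions on chromosomes 1 to 22, 20613 (31.9%) overlapped no region of the 5hmC list, and the other 43994 overlapped at least 1 and serve as the comparison. The 5mC list holds 65535 regions and the 5hmC list 327949. HL-60, a line grown from a human promyelocytic leukemia, takes on features of neutrophils in dimethyl sulfoxide (DMSO). The undifferentiated libraries U1, U2 and U3 came from untreated cells sorted as viable (SYTOX Blue-) and CD11b-. The differentiated libraries D1, D2 and D3 came from cells kept for 7 days in 1.5% DMSO (211 mM) and sorted as viable and CD11b+. Each state had 3 biological replicates of the same line, and each DNA preparation was divided between the 5mC capture and the 5hmC capture, so both marks were read from the same cells. Treatment and CD11b sort differ together between the states and cannot be told apart.

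In mammalian DNA, 5mC is placed mostly on cytosines followed by guanine (CpG) by the DNA methyltransferases DNMT1, DNMT3A and DNMT3B. The TET enzymes oxidize 5mC to 5hmC, so 5hmC can form only where 5mC was present. In immunoprecipitation with these antibodies (MeDIP for 5mC, hMeDIP for 5hmC) the read count of a region reports how much marked DNA was captured, which depends on CpG density as well as on the share of modified cytosines. A region without a listed 5hmC region is therefore one in which no enriched 5hmC stretch was called, not one shown to be free of 5hmC. The count depends on the 5hmC list used: when only the 5hmC regions above their own median mean CPM were used, 35308 listed 5mC regions had no overlap.

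The deposited 5mC table holds only regions of low p-value, and its length of 65535 rows equals a common spreadsheet row limit, so it may be a longer list cut short. Its largest p-value in the authors' deposited table was 0.0165 for undifferentiated against differentiated cells, so every listed region was selected on its own 5mC counts in these 6 libraries. The 5mC values below are for this reason a description of selected regions, without a test. Counts are given as CPM, listed counts brought to a common library total with TMM scaling (trimmed mean of M-values), and log2 fold changes are differentiated over undifferentiated with standard errors (SE) from edgeR. A region is called where edgeR's quasi-likelihood test gave a Benjamini-Hochberg adjusted p under 0.05.

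The sequences below are 2 sets of reference DNA or RNA from genes named for a few of these regions. They do not stand for the whole set, and it was not checked which printed bases a region covers. The first set is 4 gene starts whose deposited distance to a region without 5hmC was 0. That distance was also 0 for a region 20 bases outside its nearest gene, so it does not show that a region reached the start. The starts were chosen after the values were seen. They are the pair with the largest rise and the pair with the largest fall for which RefSeq (GRCh38.p14) held a promoter. Each runs 5′ to 3′ on the gene's strand from 250 bases before to 50 bases after the annotated start, with every CG in capitals. A CG reads the same on both strands. The 4 windows held 4, 23, 4 and 33 CG, and 95.8% of all 27305 promoters in that table held at least 1, with a median of 14.
LCE2B: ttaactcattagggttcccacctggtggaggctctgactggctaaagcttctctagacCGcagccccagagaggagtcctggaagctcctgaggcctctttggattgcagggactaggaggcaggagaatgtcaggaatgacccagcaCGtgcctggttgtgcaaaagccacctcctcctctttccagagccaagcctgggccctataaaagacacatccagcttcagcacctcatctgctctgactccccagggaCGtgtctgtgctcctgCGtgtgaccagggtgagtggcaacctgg
SCIN: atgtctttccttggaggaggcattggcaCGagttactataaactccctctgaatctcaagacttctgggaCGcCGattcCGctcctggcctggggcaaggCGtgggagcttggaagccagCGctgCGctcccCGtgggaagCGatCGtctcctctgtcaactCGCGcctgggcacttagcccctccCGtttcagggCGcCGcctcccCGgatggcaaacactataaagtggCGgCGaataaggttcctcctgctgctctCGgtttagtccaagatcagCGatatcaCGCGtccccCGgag
SLC28A1: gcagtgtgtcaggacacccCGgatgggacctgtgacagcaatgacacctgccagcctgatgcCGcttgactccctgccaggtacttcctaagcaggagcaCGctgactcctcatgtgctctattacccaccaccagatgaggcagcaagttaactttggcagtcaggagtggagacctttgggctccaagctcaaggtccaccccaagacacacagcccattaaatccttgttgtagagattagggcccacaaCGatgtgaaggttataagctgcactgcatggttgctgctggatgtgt
LOH12CR2: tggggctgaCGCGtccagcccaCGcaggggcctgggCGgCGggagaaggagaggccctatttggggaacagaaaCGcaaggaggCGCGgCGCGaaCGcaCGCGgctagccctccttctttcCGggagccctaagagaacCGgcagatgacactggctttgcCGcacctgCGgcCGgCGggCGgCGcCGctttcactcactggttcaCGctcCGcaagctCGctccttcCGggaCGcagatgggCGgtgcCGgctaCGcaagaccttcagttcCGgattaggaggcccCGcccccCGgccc

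LCE2B encodes a protein of the late cornified envelope of skin. Its region, chr1:152658801-152659200 in hg19, read 2.02, 2.10 and 0.865 CPM in U1 to U3 and 2.82, 4.13 and 3.54 in D1 to D3 (log2 fold change 1.05 ± 0.297 SE). SCIN encodes scinderin, a calcium-dependent actin-severing protein, and its region chr7:12610801-12611200, inside a CpG island, read 2.83, 3.75 and 1.59 CPM against 4.62, 6.33 and 5.49 (1.00 ± 0.237 SE). In both regions all 3 differentiated libraries were above all 3 undifferentiated ones. SLC28A1 encodes a sodium-coupled nucleoside transporter. Its region chr15:85428601-85429400 read 3.64, 3.15 and 3.89 CPM in undifferentiated and 1.01, 0.825 and 1.94 in differentiated libraries (-1.46 ± 0.311 SE). At LOH12CR2, a gene on 12p, the region chr12:12508801-12509400 lay on a CpG island shore and read 4.04, 6.31 and 3.75 CPM against 2.14, 2.75 and 2.29 (-0.97 ± 0.25 SE). The rising and the falling pair each held 1 start with 4 CG and 1 with many more (23 and 33). The LCE2B call was lost without U3 (adjusted p = 0.131) or D2 (0.0648), the SCIN call without U3 (0.0502) and the LOH12CR2 call without U2 (0.106). With DESeq2 the LCE2B, SCIN and LOH12CR2 calls were lost too (adjusted p = 0.168, 0.0954 and 0.122). The LCE2B call was also lost with library totals in place of TMM (0.0816 by edgeR). The SLC28A1 call held without any 1 library.

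The second set is 5 microRNA hairpins of the large imprinted microRNA cluster on 14q32, which 2 neighbouring regions without 5hmC cover by gene name. They are the RefSeq hairpins as RNA, 5′ to 3′, with CG again in capitals. They held 6, 2, 3, 7 and 2 CG, and 64.2% of the 1562 hairpins in the table held any, with a median of 1.
MIR411: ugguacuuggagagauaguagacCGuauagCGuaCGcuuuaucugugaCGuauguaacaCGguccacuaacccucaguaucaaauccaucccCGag
MIR299: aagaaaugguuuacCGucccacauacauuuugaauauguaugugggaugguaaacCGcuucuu
MIR1197: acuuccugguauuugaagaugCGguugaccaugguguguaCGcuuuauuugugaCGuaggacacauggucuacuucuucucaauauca
MIR323A: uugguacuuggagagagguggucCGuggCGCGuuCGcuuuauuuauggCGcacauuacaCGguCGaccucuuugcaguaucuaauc
MIR758: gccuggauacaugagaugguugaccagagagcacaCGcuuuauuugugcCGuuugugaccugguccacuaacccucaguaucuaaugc

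The region with MIR411 and MIR299, chr14:101489401-101491200, read 17.2, 17.9 and 15.1 CPM in undifferentiated libraries and 21.2, 19.7 and 21.95 in differentiated ones (0.33 ± 0.109 SE). The region with MIR1197, MIR323A and MIR758, chr14:101491601-101492600, read 8.89, 6.01 and 6.63 CPM against 9.24, 13.8 and 8.69 (0.52 ± 0.161 SE), and here the states overlapped, since D3 was below U1. Another region without 5hmC lay 20 bases from MIR300, at chr14:101507801-101508400, with 8.08, 5.56 and 5.19 CPM against 10.5, 8.39 and 10.5 (0.64 ± 0.165 SE). The 2 listed regions of the same cluster that did overlap 5hmC had log2 fold changes of 0.65 (next to MIR379) and 0.27 (at MIR494 and its neighbours), so all 5 were positive. With library totals in place of TMM the 5 values were smaller, at 0.40 (MIR379), 0.07 (MIR411), 0.27 (MIR1197), 0.01 (MIR494) and 0.39 (MIR300), and all 5 calls were lost (adjusted p = 0.06 to 1 by edgeR). They were also lost with DESeq2 (adjusted p = 0.0649 to 0.275). The call at MIR411 was lost without U1 (adjusted p = 0.0528), U3 (0.208), D1 (0.0839) or D3 (0.135), that at MIR1197 without U2 (0.145), U3 (0.0862) or D2 (0.436), and that at MIR300 without U3 (0.0532).

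Most of these regions carried more 5mC signal after differentiation. Of the 20612 that could be fitted, 17023 had a positive log2 fold change and 3589 a negative one, so that 82.6% (95% exact binomial interval 82.1 to 83.1%, counting error only) were higher in differentiated cells. Among listed regions with 5hmC the order was the other way round, with 15126 positive and 28868 negative (34.4% positive). The median log2 fold change was 0.53 without 5hmC (quartiles 0.39 to 0.66) and -0.51 with 5hmC (quartiles -0.72 to 0.41). Without regard to sign, called regions of both sets changed by a median of 0.645 log2 units.

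**Figure D1:**
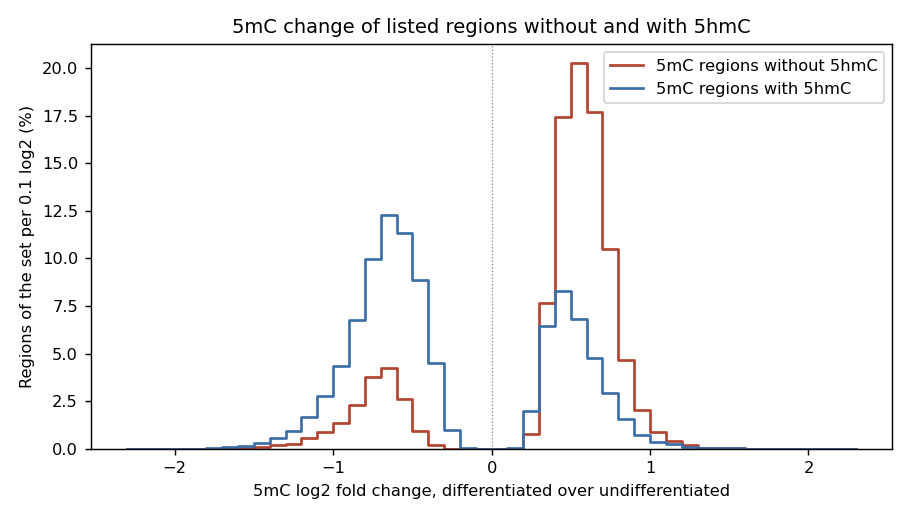
Share of regions (y axis, percent of each set per 0.1 log2) by 5mC log2 fold change, differentiated over undifferentiated (x axis), for 20612 listed 5mC regions without 5hmC (red) and 43994 with 5hmC (blue). The gap around 0 comes from the choice of the list by p-value. The red set stands mostly on the positive side (median 0.53) and the blue set mostly on the negative side (median -0.51).

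The raw counts showed the same order library by library. The median region without 5hmC held 34, 30 and 32 reads in U1 to U3 and 55, 45 and 54 in D1 to D3, while the median region with 5hmC held 46, 42 and 43 and then 46, 38 and 46. Within each library, which needs no scaling between libraries, the median count without 5hmC was below that with 5hmC by -0.44, -0.49 and -0.43 on the log2 scale in the undifferentiated cells and above it by 0.26, 0.24 and 0.23 in the differentiated cells. All 3 libraries of a state thus fell together, and the states did not overlap, which the choice of the list on these libraries favours. Regions without 5hmC took 13.3 to 13.6% of the listed counts in undifferentiated libraries and 14.8 to 15.2% in differentiated ones. After TMM scaling their median level was 4.51 to 4.62 CPM in the undifferentiated libraries and 6.17 to 6.20 CPM in the differentiated ones.

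Of the regions without 5hmC, 11228 were called higher and 2237 lower in differentiated cells. Over all listed 5mC regions tested 35.7% were called higher and 37.0% lower (72.7% in all), and since the list was made from this contrast nothing is read from these counts. Higher ones made up 83.4% of the 13465 calls without 5hmC and 34.8% of the 33543 calls with 5hmC. This split moved with the scaling: with library totals in place of TMM, 859 were called higher and 3589 lower (19.3% higher of the calls without 5hmC, and 5.11% with 5hmC), and with TMM taken from the regions above the median level 25.2% and 6.47% were higher. With DESeq2, which made fewer calls, 87.4% of 420 calls without 5hmC and 52.0% of 2908 calls with 5hmC were higher. The median log2 fold change without 5hmC moved from 0.53 to 0.28 and 0.31 under these scalings, and that with 5hmC from -0.51 to -0.77 and -0.74. The distance between the 2 medians, 1.05 on the log2 scale, does not depend on a common scaling factor. It spans the gap around 0 that the choice of the list leaves, so its size is partly set by that choice. Over the 224 genes with at least 5 regions of each kind, the within-gene difference had a median of 0.20. One region outside the set held 10.2 to 10.3% of the listed counts in undifferentiated and 12.1 to 12.3% in differentiated libraries, and enters the library totals. The sign alone stayed at 82.5 to 82.6% positive in every setting, which the choice of the list favours, since few regions lie near 0. Leaving out any 1 of the 6 libraries left 6150 to 6846 called higher and 1219 to 1341 called lower. The 3 undifferentiated and 3 differentiated libraries did not overlap in 17318 of these regions (84.0%), of which 14334 were higher and 2984 lower, beside 86.1% over the whole list (43.1% higher and 43.0% lower).

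These regions were narrow. Their width had a median of 600 bases (quartiles 600 to 1000, range 200 to 11400), against 800 bases (600 to 1400, up to 331200) with 5hmC, and together they covered 17.1 Mb against 53.0 Mb. A wider region meets a 5hmC region more readily under a rule of 1 base, so the rule itself bears on width. The share of listed 5mC regions lacking 5hmC was 36.9% at widths of 200 to 400 bases, 38.0% at 600 to 800, 28.4% at 1000 to 1400 and 16.7% above 1400. The signal per length was close in both sets, with a median of 7.69 CPM per kb without and 7.02 with 5hmC. Its order depended on width: regions without 5hmC had more signal per kb at 200 to 400 bases (8.77 against 7.69) and at 600 to 800 bases (7.90 against 6.86), and less at 1000 to 1400 (6.34 against 6.43) and above 1400 bases (6.40 against 6.90). It also depended on the state, since the difference in median log2 CPM per kb was -0.24 in undifferentiated and 0.58 in differentiated libraries.

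Direction was compared within widths. At 200 to 400 bases 74.3% of the regions without 5hmC were higher in differentiated cells, against 11.4% of those with 5hmC, and the medians were 0.62 and -0.79. At 600 to 800 bases the shares were 82.9% and 30.2%, and at 1000 to 1400 bases 86.6% and 40.9%. Above 1400 bases, where both medians were positive (0.40 and 0.27), the shares were 92.8% and 54.4%. The difference of the medians thus went from 1.42 in the narrowest class to 0.13 in the widest, and kept its sign in all 4. Because the list leaves a gap around 0, a median moves across it in 1 step. The 0.13 therefore does not show how far apart the shares stayed (92.8% and 54.4%).

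**Figure D2:**
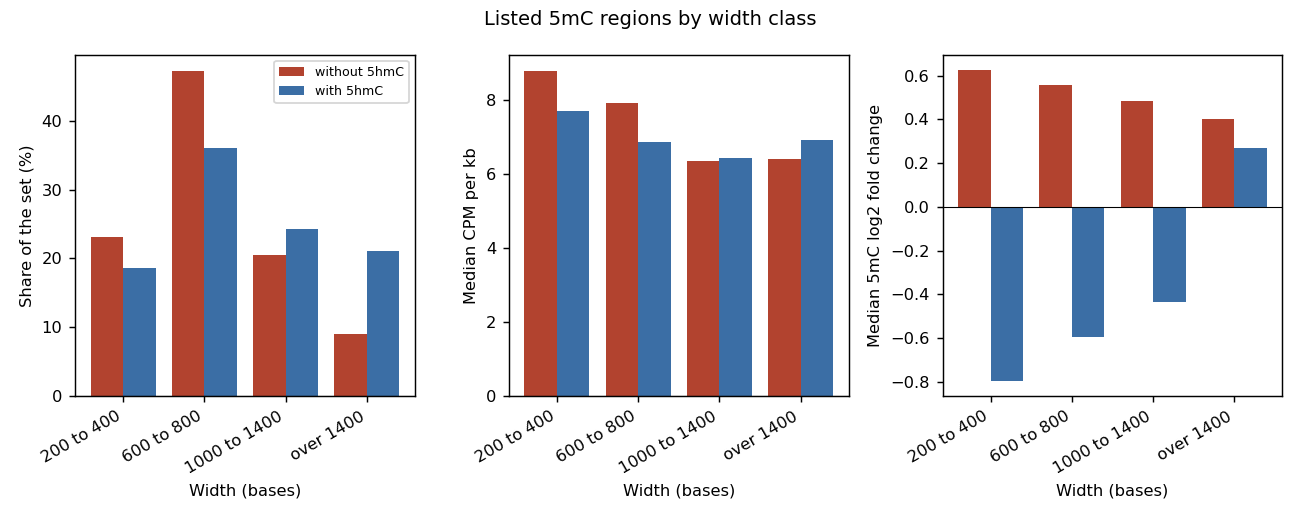
Listed 5mC regions without 5hmC (red) and with 5hmC (blue) in 4 width classes (x axis, bases): share of each set (left, percent), median CPM per kb (middle) and median 5mC log2 fold change, differentiated over undifferentiated (right). Regions without 5hmC had a positive median in all 4 classes (0.62, 0.56, 0.49 and 0.40), while regions with 5hmC were positive only above 1400 bases (0.27).

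Position along the genome was measured against the distances in the deposited table; exons and introns are not separated there. Of the regions without 5hmC, 593 (2.88%, 95% exact interval 2.65 to 3.11%) had a deposited gene-start distance of at most 1 kb (the gene-start class). Of the others, 10076 (48.9%) lay in a gene and 9944 (48.2%) between genes. The deposited distance was 0 for a region 20 bases outside its nearest gene, so it is not measured from the start itself. With 5hmC the shares were nearly the same, 2.92%, 48.0% and 49.1%. The share higher in differentiated cells was 89.2% in the gene-start class, 80.0% in gene bodies and 84.8% between genes, against 49.8%, 30.4% and 37.3% with 5hmC. Between genes, regions without 5hmC were farther from the nearest gene, at a median of 48437 bases against 27289.5.

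CpG islands, short stretches rich in CpG that are mostly unmethylated in normal cells, held 467 of these regions (2.27%, 95% exact interval 2.07 to 2.48%), and their shores within 2 kb held 1028 (4.99%). With 5hmC these shares were 2.33% and 5.26%. The remaining 92.7% lay outside both, at a median of 43852 bases from an island over all regions without 5hmC, against 30116 bases with 5hmC. Nearly all island regions without 5hmC were higher in differentiated cells (96.1%, 299 called higher and 10 lower, median log2 fold change 0.46). Island regions with 5hmC went the same way, with 85.0% higher and a median of 0.36, so islands were the class in which the sets differed least. On shores 82.5% were higher without and 36.8% with 5hmC, and outside islands and shores 82.3% and 33.0%.

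Most of these regions had a 5hmC region nearby. The nearest one lay at a median of 2400 bases (quartiles 1000 to 5200), 5428 had one within 1 kb, 2050 (9.95%) had none within 10 kb and 45 had none within 50 kb. The share higher in differentiated cells was 91.9% for the 160 regions that abutted a 5hmC region, 76.3% for the 1353 at 400 bases, 82.4% from 2200 to 5000 bases, 88.4% from 10200 to 50000 bases and 95.6% for the 45 beyond. Among regions with 5hmC the share was 27.3% where 5hmC covered all of the region (n = 23341), 40.0% at 75 to under 100%, 36.5% at 50 to under 75%, 55.3% at 25 to under 50% and 76.9% below 25% (n = 676). Width moved with cover, with medians of 600, 1200, 1000, 1600 and 2200 bases in the same order, and its part in the shares was not tested. At the edge of the rule, the 160 abutting regions had a median log2 fold change of 0.54 and a median width of 800 bases. The 645 regions that shared 200 bases, the smallest overlap on this grid, had a median width of 400 bases, and 45.9% of them were positive. Their median of -0.57 lies below the gap around 0 and does not show this near-even split.

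**Figure D3:**
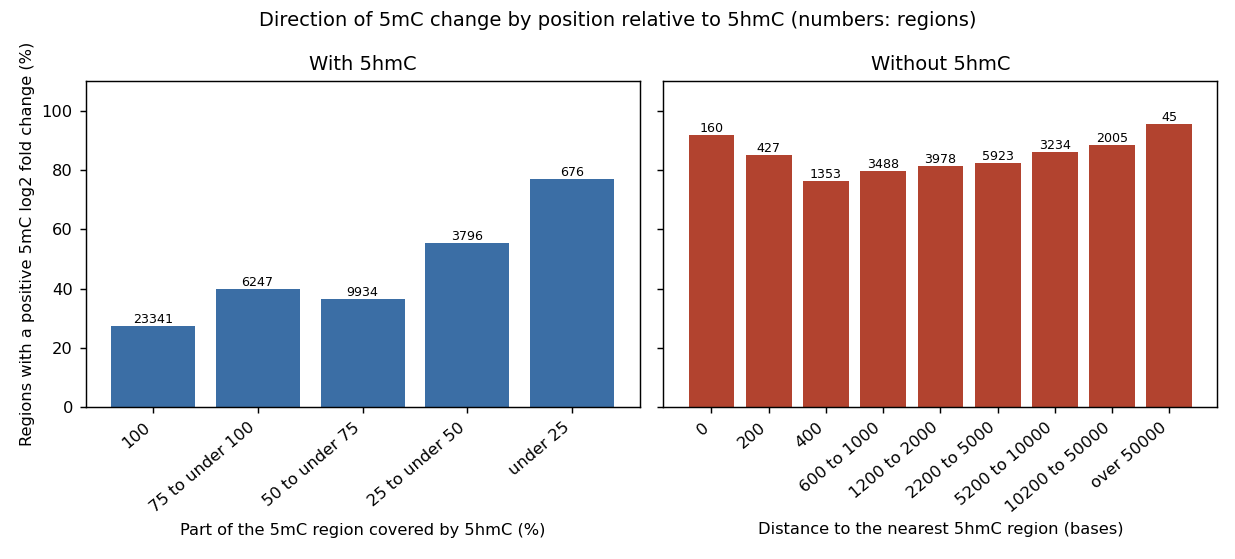
Share of listed 5mC regions with a positive log2 fold change (y axis, percent) by the part of the region covered by 5hmC (left, blue, percent) and, for regions without 5hmC, by the distance to the nearest 5hmC region (right, red, bases); numbers above the bars count regions. The share goes from 27.3% under full cover to 76.9% under thin cover, and stays between 76.3% and 95.6% without overlap.

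Every chromosome showed the difference. The share of listed 5mC regions lacking 5hmC ran from 20.5% on chromosome 19 to 41.5% on chromosome 13. Without 5hmC the share higher in differentiated cells ran from 68.6% on chromosome 17 to 92.7% on chromosome 18, and with 5hmC from 22.5% on chromosome 17 to 50.1% on chromosome 21. On 22 of 22 chromosomes it was larger without 5hmC, and the lowest value without 5hmC was above the highest with it.

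**Figure D4:**
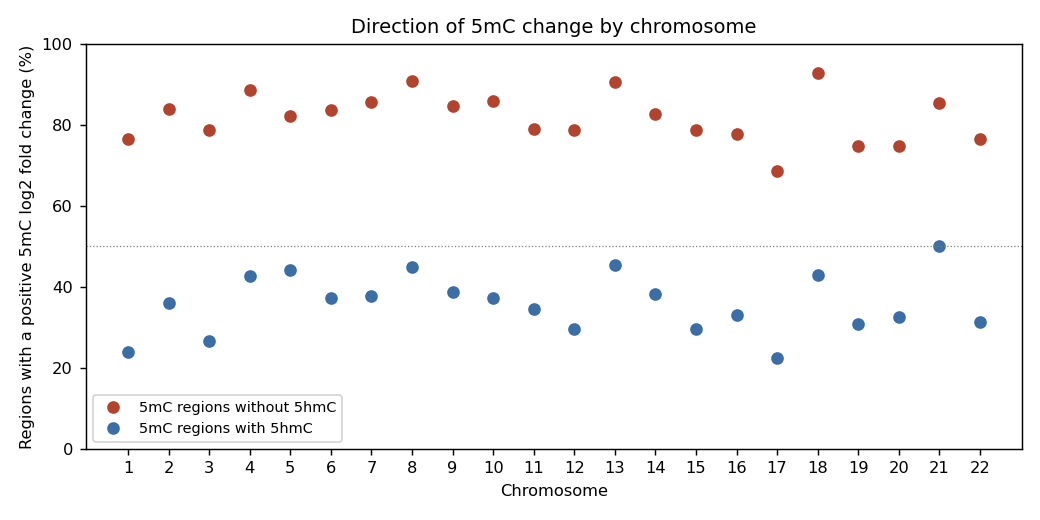
Share of listed 5mC regions with a positive log2 fold change (y axis, percent) on chromosomes 1 to 22 (x axis), without 5hmC (red) and with 5hmC (blue); the dotted line marks equal numbers in both directions. All red points (68.6 to 92.7%) lie above all blue ones (22.5 to 50.1%).

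The largest single changes were in gene bodies and between genes, in regions of 200 or 400 bases with few reads. Among 12241 called regions with separate states and a mean of at least 1 CPM, the largest rise was between genes, 72420 bases from PPAP2B (a lipid phosphate phosphatase), at chr1:56887801-56888000. It read 0.808, 1.05 and 1.87 CPM in undifferentiated and 3.72, 3.30 and 4.46 in differentiated libraries (1.63 ± 0.309 SE). In DLGAP2, a scaffold protein of synapses, chr8:1610001-1610400 went from 1.08, 1.80 and 0.865 CPM to 3.94, 3.71 and 3.54 (1.58 ± 0.31 SE). DOCK1 activates the GTPase RAC in migration and engulfment, and its region chr10:129224001-129224400 read 2.02, 2.10 and 0.865 CPM and then 4.51, 5.64 and 4.80 (1.56 ± 0.271 SE). Further large rises were at chr6:14115001-14115400, 2088 bases from CD83, a surface protein of mature dendritic cells (1.52), and chr6:13080001-13080400 in PHACTR1, a regulator of actin and protein phosphatase 1 (1.46). Separate states were part of how these regions were picked.

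The largest fall was in FBXL2, an F-box subunit of a ubiquitin ligase, where chr3:33393201-33393600 read 3.23, 2.70 and 3.32 CPM in undifferentiated and 0.451, 0.963 and 1.14 in differentiated libraries (-1.85 ± 0.358 SE). In the helicase gene DHX57, chr2:39083601-39084000 went from 4.71, 4.21 and 4.33 CPM to 0.789, 2.34 and 1.14 (-1.68 ± 0.29 SE). DROSHA, the nuclease that starts microRNA processing in the nucleus, held chr5:31454801-31455200 with 3.64, 4.66 and 4.76 CPM against 1.69, 0.825 and 1.60 (-1.61 ± 0.287 SE). The other three lay 2937 bases from MIR4522 (chr17:25617601-25618000, -1.63), in the elastic-fibre gene FBLN5 (chr14:92338001-92338400, -1.62) and 219832 bases from TLR4, the lipopolysaccharide receptor (chr9:120699601-120700000, -1.62).

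**Figure D5:**
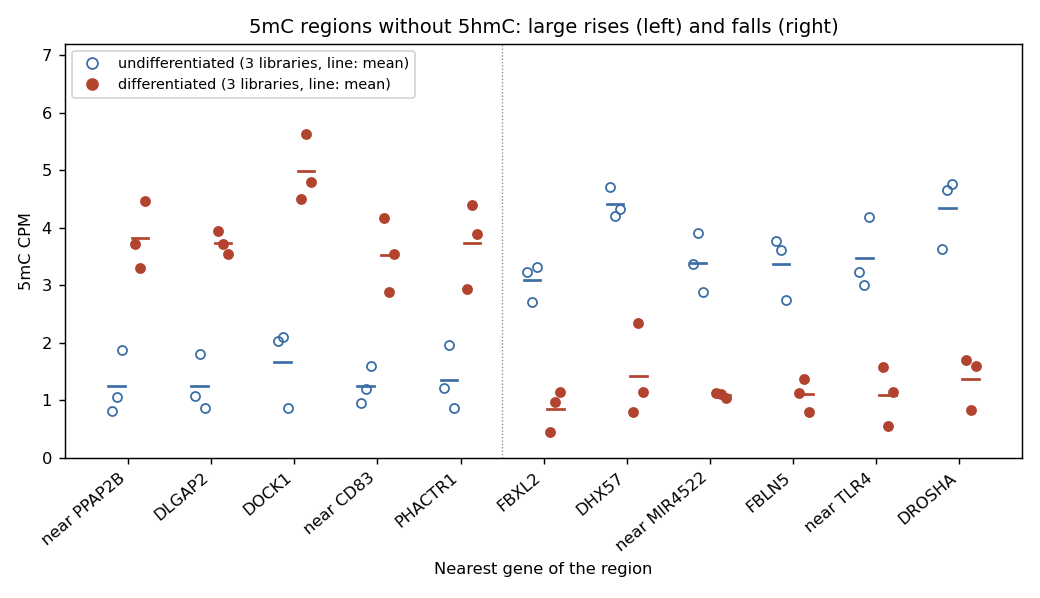
5mC CPM (y axis) of each library in 5 regions without 5hmC among those with the largest rise (left) and the 6 with the largest fall (right), named by the nearest gene (x axis); open blue points are undifferentiated, filled red points differentiated libraries, 3 each, and lines are means. Regions were picked from those with separate states, and all libraries lie under 6 CPM.

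By class, the largest change in the gene-start class was the fall at SLC28A1 given above. The largest in a CpG island was chr7:63386801-63387400, 97397 bases from LOC100506050, with 1.75, 2.85 and 3.03 CPM in undifferentiated and 5.75, 5.78 and 5.83 in differentiated libraries (1.19 ± 0.234 SE). On shores it was chr13:99229801-99230400, 405 bases from STK24, a kinase of the STE20 family, with 0.943, 1.65 and 1.15 CPM against 2.82, 3.44 and 3.66 (1.40 ± 0.321 SE).

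The strongest and widest of these regions pointed up. The highest signal per length, 157 CPM per kb, was at chr12:37992201-37992400, with 23.4, 23.9 and 27.1 CPM against 34.6, 40.2 and 39.4 (0.61 ± 0.0898 SE). It was followed by chr14:19042601-19043600 (55.2 CPM per kb, 0.40), chr20:2088801-2089200 in the kinase gene STK35 (35.3, 0.48) and chr9:66529801-66530400 (33.3, 0.34). The widest, chr1:121464601-121476000 with 11400 bases, read 91.9, 84.1 and 86.7 CPM and then 112, 111 and 99.3 (0.29 ± 0.0671 SE). Beside it lay chr1:121396801-121405600 with 8800 bases (0.32), and the other two were chr8:7148001-7157400 (9400 bases, 0.27) and chr8:7575801-7582600 (6800 bases, 0.26). The regions on chromosomes 1, 9, 12 and 14 lie next to centromeres and those on chromosome 8 in a segmental duplication, where reads can map to more than 1 place; the treatment of such reads is not given here. All 8 were higher in differentiated cells with TMM. With library totals in its place, the one on chromosome 12 kept its call at 0.36. The others lost theirs, with log2 fold changes from 0.001 (chr8:7575801-7582600) to 0.23 (STK35). With DESeq2 the calls at STK35 (adjusted p = 0.142), chr9:66529801-66530400 (0.257), chr8:7148001-7157400 (0.111) and chr8:7575801-7582600 (0.243) were lost. Without 1 library, the call at STK35 was lost for U2 (adjusted p = 0.107), at chr9:66529801-66530400 for U1 (0.246), U3 (0.0546) and D1 (0.152), and at chr8:7575801-7582600 for U1 (0.0974), U3 (0.0674), D2 (0.0633) and D3 (0.163).

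Of the 4 regions farthest from any 5hmC, 3 lay between genes and 1 in a gene. The most distant, chr9:30642801-30643200, was 236600 bases away and read 1.89, 1.95 and 2.02 CPM in undifferentiated against 2.82, 3.71 and 4.12 in differentiated libraries (0.85 ± 0.279 SE). Next were chr11:54840001-54840400 (200600 bases, 0.64) and chr9:24897401-24898200 (166800 bases, 0.82). The fourth, chr14:67240001-67241000 in GPHN, which encodes the scaffold of inhibitory synapses, was 154600 bases away and pointed down (-0.72), and it was not called, though it was without U1 (adjusted p = 0.0429) or D2 (0.0404). The 3 others were called with all libraries, and each lost its call without 1 of several: the first without any library but D1 (0.0638 to 0.167), the next without U1 (0.278), U2 (0.0885), D1 (0.0783) or D2 (0.204), and the last without U2 (0.0615), U3 (0.246) or D2 (0.144).

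The regions lay in 5671 genes, of which 3470 held a single one and 3941 also held a listed region with 5hmC. The genes with most were long genes, several of them of the nervous system. CSMD1, a complement regulator of the brain, held 40, all 40 higher in differentiated cells and 32 called, with log2 fold changes of 0.43 to 1.22. PTPRN2, a receptor phosphatase of secretory vesicles, held 36 (35 higher), AGAP1, a regulator of ARF GTPases, 31 (31 higher), and WWOX, an oxidoreductase gene at a fragile site, 25 (24 higher). RBFOX1, a neuronal splicing factor, held 23 (21 higher), TRAPPC9, a vesicle-tethering subunit, 21 (20 higher), CNTNAP2, a neuronal adhesion protein, 20 (19 higher) and DOCK1 20 (20 higher). DPP6, HDAC4, OPCML and SDK1 also held 20 each. Of the 60 genes with 10 or more, 32 had all of theirs higher.

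Within a gene the contrast with 5hmC-bearing regions could be strong. In WWOX 24 of 25 regions without 5hmC but 9 of 19 with 5hmC were higher, with medians of 0.61 and -0.44. In CNTNAP2 19 of 20 and 6 of 19 were higher (0.65 and -0.61). In other genes both kinds went up together, as in PTPRN2, where 64 of 66 regions with 5hmC were higher, and in OPCML, with 15 of 15. Over the 224 genes with at least 5 regions of each kind, the median without 5hmC was above that with 5hmC in 203 (90.6%), and the within-gene difference had a median of 0.20 (quartiles 0.07 to 1.06). Regions of 1 gene share their locus and are not replicates.

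They also clustered in windows of 1 Mb. The fullest, chr10:131000001-132000000 with the repair gene MGMT and the transcription factor gene EBF3, held 48 (48 higher), beside 25 with 5hmC (22 higher). The end of the short arm of chromosome 2 held 41 in chr2:1-1000000 (41 higher) and 36 in chr2:1000001-2000000 (36 higher), the latter with MYT1L, a neuronal zinc finger factor. Regions with 5hmC there were also mostly higher, 27 of 30 and 56 of 56. On chromosome 8, chr8:47000001-48000000 held 38 (38 higher) and no gene with a region inside it, and chr8:1000001-2000000 with DLGAP2 held 36 (35 higher). With 5hmC, 11 of 13 and 49 of 51 were higher in these windows.

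Genes of the DNA methylation machinery and of blood cells were read from lists. Of 21 genes that write, read or remove DNA methylation, 4 held 7, of which 4 were called higher and 2 lower (median 0.43). DNMT3A, a writer of new methylation, held chr2:25534801-25535200 with 4.04, 3.30 and 2.60 CPM against 1.69, 1.38 and 1.60 (-1.08 ± 0.299 SE). TET3, one of the oxidizing enzymes, held chr2:74289801-74290400 with 4.18, 4.21 and 4.04 CPM against 2.03, 2.75 and 2.40 (-0.80 ± 0.253 SE). DNMT1, the maintenance enzyme, held chr19:10267001-10268000, which pointed up (8.08, 7.51 and 6.20 against 9.69, 11.3 and 10.1 CPM, 0.50). Each of these calls was lost when 1 library was left out: DNMT3A without U1 (adjusted p = 0.0882), TET3 without U1 (0.0601), U2 (0.0612), D1 (0.112) or D3 (0.0564), and DNMT1 without U3 (0.149) or D2 (0.0909). With DESeq2 the DNMT3A, TET3 and DNMT1 calls were lost too (adjusted p = 0.147, 0.218 and 0.22). The DNMT1 call was also lost with library totals in place of TMM (0.816 by edgeR).

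A list of 18 genes held genes of the primary granules, whose proteases are made at the promyelocyte stage, and the progenitor genes MYB, KIT, FLT3 and CD34. Of these 18 genes 1 held such regions, and neither of its 2 regions was called. The gene need not be a granule gene. Of 32 genes of neutrophil maturation 5 held 1 each, with 2 called higher and none lower: PADI4, which citrullinates histones, at 0.70, and CSF3R, the receptor for granulocyte colony-stimulating factor, at 0.43. Of 19 myeloid transcription factor genes 10 held 15, with 4 called higher and 1 lower, among them MEIS1 at 0.83, RUNX1 at 0.68 and a region shared by SUPT3H and RUNX2 at -0.72. Of 18 genes of other blood lineages 5 held 15, with 10 called higher and none lower, among them the T-cell factor BCL11B, the macrophage receptor MARCO and the B-cell factor PAX5, each at 0.80. With DESeq2 all 8 calls were lost (adjusted p = 0.153 to 0.32). With library totals in place of TMM all but that of the RUNX2 region were lost. None of these 8 calls held without every 1 library. PADI4 lost it without U3 or D3 (adjusted p = 0.0625 and 0.0617), MARCO without U3 or D3 (0.356 and 0.329), CSF3R without any library but D2 (0.0698 to 0.598), and MEIS1 without U2, U3, D2 or D3 (0.0863 to 0.133). RUNX1 lost it without U1, U3, D2 or D3 (0.212 to 0.416), BCL11B without U1, U3, D1 or D3 (0.0731 to 0.108), PAX5 without any but D2 (0.0643 to 0.18) and the RUNX2 region without any (0.0519 to 0.192). Over all regions without 5hmC 54.5% were called higher and 10.9% lower, and over the whole 5mC list 35.7% and 37.0%. These gene lists hold few regions and were read without a test, so none of these counts is a result about its list.

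Larger families followed the whole set, with list medians of 0.42 to 0.65 beside 0.53 over all regions without 5hmC. Zinc finger genes held 218 (105 called higher, 20 lower, median 0.52), solute carriers 164 (76 and 30, 0.51), long noncoding RNA genes 194 (119 and 16, 0.57) and microRNA genes 75 (42 and 8, 0.52). Protein tyrosine phosphatases held 99 (55 and 10, 0.48). Genes of nerve and muscle excitability were similar, with potassium channels at 69 (35 and 4, 0.54), calcium channels at 48 (25 and 8, 0.51) and neurotransmitter receptors at 65 (36 and 8, 0.60). In GRIN2B, a glutamate receptor subunit, chr12:14108801-14109600 went from 2.56, 2.55 and 2.45 CPM to 4.39, 4.95 and 8.35 (1.23 ± 0.238 SE).

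Over all regions without 5hmC 54.5% were called higher and 10.9% lower. Collagen genes held 55 (31 called higher and none lower, median 0.55), for example COL24A1 with 1.75, 2.10 and 1.44 CPM against 3.94, 3.85 and 3.66 (1.11). Cadherins outside the clusters held 63 (44 and 3, 0.56), clustered protocadherins, a family of neuronal adhesion proteins, 10 (3 and 0, 0.42), and G protein-coupled receptors named GPR 33 (25 and 2, 0.58). A region at PCDHGA1 and its neighbours, inside a CpG island at chr5:140739601-140742200, read 15.5, 13.5 and 15.9 CPM against 21.9, 20.1 and 22.98 (0.53). Olfactory receptor genes held 21 (13 and 2, 0.54), with OR8U8 at -1.53 and OR9Q1 at -1.19, and keratin genes 6 (3 and 1, 0.65), with KRT77 at 1.11. The 2 regions in HOX genes, which pattern the body axis and are often active in leukemia, were both called higher: HOXB3 read 8.76, 9.01 and 8.94 CPM against 12.5, 12.9 and 12.8 (0.52) and HOXA3 6.74, 7.21 and 6.78 against 10.3, 9.63 and 9.60 (0.51). The HOXA3 call was lost without U1 (adjusted p = 0.0666), U3 (0.0607) or D1 (0.0729). With library totals in place of TMM both HOX values were 0.26 and neither was called (adjusted p = 0.504 and 0.761 by edgeR), and neither was called by DESeq2 (0.148 and 0.217). Falls of over 1 log2 unit were seen in ZNF639 (-1.50), the vesicular monoamine transporter SLC18A2 (-1.44), the carnitine transporter SLC22A16 (-1.23) and the phosphatases PTPN4 (-1.33) and PTPRG (-1.17). With DESeq2 the calls at COL24A1 (adjusted p = 0.113), OR8U8 (0.0513), OR9Q1 (0.085), SLC22A16 (0.119) and PTPRG (0.07) were lost. The PCDHGA1 call was lost with library totals in place of TMM (adjusted p = 0.122 by edgeR).

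The 5hmC regions next to these regions were not used to choose them by value and could be tested over all 327901 fitted 5hmC regions. Within 10 kb of 18563 regions without 5hmC lay 17672 different nearest 5hmC regions, of which 17671 were fitted. By edgeR's quasi-likelihood test, 5207 of them (29.5%) were called higher and 3852 (21.8%) lower in differentiated cells, with a median log2 fold change of 0.01. Over all 5hmC regions 27.0% were called higher and 23.3% lower (50.3% in all, median -0.04), so the neighbours were near the background. The 46420 5hmC regions that overlapped a listed 5mC region leaned the other way, with 20.8% higher and 38.7% lower (median -0.35). Next to 5mC regions called higher, 32.04% of the 9634 5hmC neighbours were called higher and 19.5% lower, and next to 5mC regions called lower 20.8% of 2076 were higher and 29.0% lower. Of the 6211 pairs in which both marks were called, 3229 were higher in both, 606 lower in both, 1943 had higher 5mC with lower 5hmC and 433 lower 5mC with higher 5hmC. Both marks came from the same DNA preparations, so a deviation of a preparation would enter both. The neighbour counts depended on scaling: library totals in place of TMM gave 2696 higher and 6073 lower. DESeq2 gave 2535 and 1069, and leaving out any 1 library gave 3307 to 5286 and 2078 to 3968.

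The largest 5hmC rises lay beside 5mC regions between genes and had low levels. At chr4:137509801-137510200, where PCDH18 is the nearest gene, 5hmC went from 0.326, 0.289 and 0.423 CPM to 1.63, 0.716 and 1.66 (2.09 ± 0.33 SE, adjusted p = 3.55e-06 by edgeR). The 5mC region 5800 bases away, itself 923475 bases from PCDH18, had a log2 fold change of 0.70. Beside a 5mC region that lay 271885 bases from its nearest gene, NLGN1, chr3:174272001-174272400 went from 0.353, 0.579 and 0.302 CPM to 1.41, 1.61 and 1.50 (1.87 ± 0.307 SE, adjusted p = 6.76e-06 by edgeR), and the 5mC value 600 bases away was 0.63. The other two had COL13A1, a transmembrane collagen gene, 33897 bases away (1.88, beside 5mC at 0.66) and POM121L12 31750 bases away (1.86, beside 0.62). In all 4 pairs both marks pointed up, and the 5hmC states did not overlap. The 5mC regions of the COL13A1 and NLGN1 pairs were called (adjusted p = 0.0488 and 0.0207 by edgeR). Those of the PCDH18 and POM121L12 pairs were not (0.0719 and 0.0685).

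Of the 4 largest 5hmC falls, 3 lay beside 5mC regions inside genes. In MERTK, a receptor kinase for the engulfment of dying cells, chr2:112752201-112752600 went from 0.95, 1.11 and 1.15 CPM to 0.395, 0.179 and 0.219 (-1.96 ± 0.382 SE, adjusted p = 7.49e-05 by edgeR). The 5mC region 800 bases away, chr2:112753401-112754000, pointed up, from 2.96, 2.25 and 3.03 CPM to 4.17, 6.19 and 4.80 (0.85 ± 0.238 SE). Near LRP2BP 5hmC also fell (-1.74) beside a 5mC region that pointed up (0.68). In DIP2A (-1.84, beside -0.59) and in IKZF3, a lymphoid zinc finger factor (-1.81, beside -0.47), both marks pointed down. The 5mC region was called in MERTK (adjusted p = 0.00912 by edgeR), but not near LRP2BP (0.0674), in DIP2A (0.09) or in IKZF3 (0.0953). At IKZF3 the 5mC states also overlapped. The 5hmC calls of these 8 neighbours held in every alternative tried.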

How the data were processed

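MeDIP and hMeDIP libraries of HL-60 cells, 3 per state and mark, were analysed. The submitters' processing notes name hg19, edgeR 2.11, SICER 1.1, BWA, bedtools 2.17.0 and SAMtools 0.1.18, without saying what each did. The authors deposited unnormalized read counts per region on a grid of 200 bases. The log2 fold change that the authors deposited puts the undifferentiated state on top, the reverse of the sign used here. The authors' deposited p-value and adjusted p-value were used only to find the limits of the list (0.0165 and 0.0826). Distances to genes, gene starts and CpG islands are used as deposited, per the file headers, and their annotation is not stated in the sources used here, nor is how regions were called and on which libraries. Listed counts summed to 6076100 to 9670011 per 5mC library and 13010267 to 33693880 per 5hmC library; sums of a chosen list are not the sequencing depth.

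Each mark was fitted over its whole table with edgeR 4.0.16 (R 4.3.3): filterByExpr, TMM scaling, and the quasi-likelihood test of differentiated against undifferentiated cells. P-values were Benjamini-Hochberg adjusted over the 328588 tests that the 5mC list implies, and over the 327901 fitted 5hmC regions, and the fits were tested on simulated data. The 5mC spread was estimated from chosen regions alone, so its p-values can be too small. One region without 5hmC did not pass the filter on low counts. A promoter region had a deposited gene-start distance of at most 1 kb, and a shore region a deposited island distance of at most 2 kb. Alternatives were other scalings, DESeq2 1.42.0, no filter, a replicate block and each library left out. Regions outside chromosomes 1 to 22 (928) were left out. Gene names turned into dates by a spreadsheet (27 regions) were not used as names.

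The members, gene lists and tests were chosen with earlier results of these data known. Regions were named by rule: the 6 largest rises and falls among called regions with separate states and a mean of at least 1 CPM, the largest change per class, the 4 of highest signal per kb, the 4 widest and the 4 farthest from 5hmC. The rule also took the genes and 1 Mb windows with most regions, the 4 largest 5hmC rises and falls within 10 kb, and up to 3 called regions per gene list, of which those described here are a part. A few results that this rule names are not reported here. The gene starts and the 14q32 cluster were chosen after their values were seen. RefSeq promoters matched 202 of 354 symbols whose deposited gene-start distance to a region was 0, too few to compare base composition. Because their build differs from hg19, it was not checked which printed bases a region covers. The replicates are biological per the labels' descriptions of the samples.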

Additional observations from a re-analysis of the deposited data

How the results depend on the processing

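Counts of calls depended on scaling and tool, and the direction of the calls depended on scaling. Higher ones made up 83.4% of the calls without 5hmC with TMM and 87.4% with DESeq2. With library totals they made up 19.3%, and with TMM from regions above the median level 25.2%. Only the sign over all regions without 5hmC stayed, at 82.5 to 82.6% positive, which the choice of the list favours. Regions without 5hmC called higher and lower numbered 11228 and 2237 with TMM, 859 and 3589 with library totals, 1209 and 3589 with TMM from regions above the median level, and 367 and 53 with DESeq2. Regions with 5hmC called higher numbered 11661, then 1556, 1997 and 1513, and those called lower 21882, with 1395 by DESeq2. Nearest 5hmC regions called higher and lower numbered 5207 and 3852, then 2696 and 6073 with library totals, 2535 and 1069 with DESeq2, and 2652 and 2033 within 2 kb. Leaving out 1 library gave 6150 to 6846 and 1219 to 1341 without 5hmC, 7547 to 8024 and 13524 to 14148 with 5hmC, 3307 to 5286 and 2078 to 3968 for nearest 5hmC regions, and 0.996 to 1.02 for the difference of the median log2 fold changes. The cause of these shifts was not tested. That difference was 1.05 over all widths, 1.42, 1.15, 0.92 and 0.13 in the 4 width classes and 1.07 outside islands and shores. Over all widths it spans the gap around 0 that the choice of the list leaves. The difference in median log2 CPM per kb, 0.13 over all, was 0.19, 0.20, -0.022 and -0.11 by width, -0.24 in undifferentiated and 0.58 in differentiated libraries. Stronger 5hmC regions alone left 35308 regions without overlap. With promoters within 2 kb the promoter share was 3.91% and the intergenic share 47.5%, and with shores within 4 kb the shore share was 8.79% and the remainder 88.9%. Of 96 named results none reversed. Calls were lost for 62 with DESeq2, 33 with library totals, 30 with TMM from regions above the median level and 13 to 25 without 1 library.

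Same-numbered libraries of the 2 states did not deviate together (correlations of 0.01, 0.01 and -0.01 for 5mC and -0.0002, -0.11 and -0.12 for 5hmC). This showed no pairing by number, but with 3 libraries per state it cannot exclude one. A replicate block gave 13328 calls without 5hmC, 83.4% of them higher, and 1 named call was lost. Of the nearest 5hmC regions it called 4454 higher and 3275 lower, against 5207 and 3852 without a block. Input DNA was not analysed here, the 5mC list was selected on the contrast it describes, and its listed counts do not give the depth of the libraries, so the levels compare listed regions with each other only.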
